A study of Mus musculus with 16 samples.

Results

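The olfactory receptor genes with symbols from Olfr1200 to Olfr1317 lie on mouse chromosome 2 and make up one stretch of the receptor numbering. Genes were taken whose symbol is Olfr and a number in that range, without pseudogene symbols (-ps) and without Olfr1243, Olfr1272, Olfr1276, Olfr1277, Olfr1278, Olfr1307, Olfr1308 and Olfr1313. This gave 88 genes of 19505 measured, and of 1080 measured Olfr genes; the 8 receptors left out are the rest of the 96 measured in the range. The comparison set was the 984 Olfr genes outside the range. RNA was measured on 16 Clariom S mouse arrays, with 4 arrays in each of 4 groups.

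All animals were S100a5-tauGFP mice of both sexes, 7 to 12 weeks old, a strain in which the S100a5 gene drives green fluorescent protein (GFP) joined to tau. S100a5 is a calcium-binding protein that olfactory sensory neurons make more of after they have been active, so GFP is a proxy for activity and marks no receptor by itself. The 24 mice were kept singly in chambers of clean air for 40 h, and from 26 h on they received pulses of 10 s every 20 min, either of cigarette smoke (odour) or of filtered air (vehicle). The cells of 3 mice were pooled, and cells of each of the 8 pools were sorted by GFP, giving the groups smoke GFP+, vehicle GFP+, smoke GFP- and vehicle GFP-. The series text also names bourgeonal as an odour, and the sample labels, which name cigarette smoke, were followed. Replicates are pools of different mice, so the tests cover the spread between pools, and with 4 arrays a group the precision is limited by their number.

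Odorant receptors are G protein-coupled receptors of the olfactory sensory neurons. A mature neuron expresses a single receptor gene from a single allele, so the RNA of a receptor in a tissue follows the number of neurons that chose it and the amount each makes. An odour that binds the receptor activates the olfactory G protein (its alpha subunit is encoded by Gnal), adenylyl cyclase (Adcy3) and a cyclic nucleotide-gated channel (Cnga2). The receptor genes sit in clusters, and related genes (the MOR families) are often neighbours.

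The 88 genes formed a run of 60 from Olfr1200 to Olfr1274 and a run of 28 from Olfr1275 to Olfr1317, and the RefSeq annotation of GRCm38.p6 listed 287 genes between these runs. MOR family names were listed for 87 of the 88, in 14 families; Olfr1252 had none. RefSeq promoter windows were found for 76 of the 88 genes, and in 60 of these the listed gene start is the start codon itself, so the window may not hold the promoter. In 16 genes the start lay elsewhere. The 250 bases before the start are printed for 4 of those 16, because these receptors take opposite sides of the cell sort described below: Olfr1213 and Olfr1208 were higher in GFP- cells and Olfr1220 and Olfr1242 in GFP+ cells. Capitals mark TAATTA (the core bound by homeodomain factors such as LHX2), CCCNNGGG (the core of the motif of the EBF factors) or TATAAA, searched on both strands.
Olfr1213, chr2:88980268-88980517, minus strand: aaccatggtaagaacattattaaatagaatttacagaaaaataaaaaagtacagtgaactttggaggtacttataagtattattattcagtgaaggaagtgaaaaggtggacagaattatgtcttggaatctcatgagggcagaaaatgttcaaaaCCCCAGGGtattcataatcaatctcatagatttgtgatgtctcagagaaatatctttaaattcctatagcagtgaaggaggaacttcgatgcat
Olfr1208, chr2:88897649-88897898, minus strand: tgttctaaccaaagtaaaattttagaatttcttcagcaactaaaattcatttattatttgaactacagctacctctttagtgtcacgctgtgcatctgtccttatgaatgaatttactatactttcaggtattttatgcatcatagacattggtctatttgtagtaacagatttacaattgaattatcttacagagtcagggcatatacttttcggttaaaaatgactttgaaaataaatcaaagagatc
Olfr1220, chr2:89097964-89098213, minus strand: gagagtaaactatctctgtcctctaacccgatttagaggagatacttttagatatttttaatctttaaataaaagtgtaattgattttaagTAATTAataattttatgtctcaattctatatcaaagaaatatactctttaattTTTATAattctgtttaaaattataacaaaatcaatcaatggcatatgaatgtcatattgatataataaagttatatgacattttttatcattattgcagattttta
Olfr1242, chr2:89494347-89494596, minus strand: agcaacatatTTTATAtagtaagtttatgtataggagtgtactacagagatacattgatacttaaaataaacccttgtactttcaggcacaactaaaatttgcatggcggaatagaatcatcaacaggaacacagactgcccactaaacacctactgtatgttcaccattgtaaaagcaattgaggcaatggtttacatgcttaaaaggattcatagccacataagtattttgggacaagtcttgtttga
TAATTA and CCCNNGGG read the same on both strands, TATAAA appears as TTTATA on the other, and overlapping matches were allowed. Olfr1213 held 1 CCCNNGGG, Olfr1220 held 1 TAATTA and 1 TATAAA, Olfr1242 held 1 TATAAA, and Olfr1208 held none of these letters in its window. Among the 17 windows of the 16 genes, TAATTA was in 5 (29.4%), CCCNNGGG in 2 (11.8%) and TATAAA in 9 (52.9%). In the 241 such windows of other Olfr genes the shares were 16.6%, 7.05% and 29.9%, and in the 30936 such windows of all genes 4.43%, 12.2% and 11.4%. Over all 77 windows of the 76 genes the shares were 24.7%, 2.6% and 49.4%. Over all 860 windows of other Olfr genes they were 17.4%, 2.79% and 38.4%. A match in these windows is a description of letters and was not linked to the values below.

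The receptors were among the brighter Olfr genes on the arrays. Values are deposited log2 signals; probe sets differ in brightness, so no receptor's level was set against another's as an amount of RNA. The median of the group means over the 88 genes was 11.52 (smoke) and 11.48 (vehicle) in GFP+ cells, and 10.71 (smoke) and 10.72 (vehicle) in GFP- cells. For the 984 other Olfr genes it was 9.91, 9.88, 9.20 and 9.18 in the same order. The mean over 16 arrays exceeded the median of the other Olfr genes (9.57) in 64 of the 88. As a level near background, each array's 95th percentile among 319 vomeronasal receptors was used, receptors that mostly belong to neurons of the vomeronasal organ; it ran from 6.14 to 6.78 over the arrays. By it 83 receptors were above background in all 4 groups, Olfr1230 was at or below it in all 4, and Olfr1279, Olfr1287, Olfr1289 and Olfr1314 were at or below it in some. In each group 2 to 4 of the 88 lay there, against 111 to 128 of the other 984.

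Olfr1264, of family MOR236, had the highest mean of the 88, at 16.23. It read 17.59, 17.08, 16.98 and 17.25 in smoke GFP+ cells, 17.79, 17.39, 17.17 and 17.17 in vehicle GFP+ cells, 15.19, 14.96, 14.88 and 14.76 in smoke GFP- cells, and 16.04, 15.61, 15.05 and 14.83 in vehicle GFP- cells. All 8 GFP+ arrays were above all 8 GFP- arrays, and the smoke and vehicle arrays overlapped within each fraction. Olfr1222 (mean 15.56), Olfr1247 (14.56), Olfr1200 (14.33) and Olfr1219 (14.06) followed. Olfr1247 varied most among these within groups. It read 12.61, 15.30, 13.96 and 14.03 in smoke GFP+ cells and 12.94, 15.58, 14.80 and 14.73 in vehicle GFP+ cells. The first array was the lowest and the second the highest in both, although the same replicate number stands for different mice there. The cause of this shared order was not tested. Olfr1264 and Olfr1222 passed 16, the log2 ceiling of a 16-bit scanner, on 11 array values in all, so the scale may be stretched there. At the other end Olfr1230 averaged 4.96, Olfr1314 6.13, Olfr1279 6.24, Olfr1289 6.41 and Olfr1287 6.53. The median SD within a group was 0.37 for the 88 receptors and 0.37 for the other Olfr genes.

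Both fractions carried markers of mature neurons. The mean over 10 genes of mature olfactory sensory neurons was 17.10 to 17.16 on the 8 GFP+ arrays and 16.79 to 16.97 on the 8 GFP- arrays. These means lie above the log2 ceiling of 16 named above, so the scale may be stretched there. Genes of immature neurons read 11.00 to 11.29 in GFP+ and 12.47 to 12.93 in GFP- cells. Genes of immune cells read 8.30 to 8.83 against 12.70 to 13.94, globose basal cells 5.63 to 6.26 against 8.44 to 9.96, and microvillar cells and ionocytes 8.19 to 8.57 against 11.53 to 12.03. Genes of glands and respiratory epithelium read 9.79 to 10.84 against 10.71 to 12.72, and endothelial and stromal genes 6.60 to 7.17 against 6.88 to 7.80. Genes of sustentacular cells, the supporting cells of the epithelium, read 11.97 to 12.97 (smoke) and 11.77 to 12.21 (vehicle) in GFP+ cells, and 12.18 to 12.88 (smoke) and 12.32 to 12.87 (vehicle) in GFP- cells. All 4 horizontal basal cell genes were at or below the vomeronasal level in every group, and none of the 3 red blood cell genes was measured. The part of these lists in the results on receptors was not tested.

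The first question was which receptors differed between the sorted fractions with no odour given. In vehicle mice 39 of the 88 were higher and 15 lower in GFP+ than in GFP- cells (limma, adjusted p of at most 0.05 over all genes), together 61.4%. Over all genes 39.6% were called, and of the other Olfr genes 72.7%, of which 527 were higher and 188 lower. In smoke mice 42 of the 88 were higher and 17 lower, together 67%, against 32.7% of all genes and 71.4% of other Olfr genes. The median difference of the 88 was 0.59 in vehicle and 0.57 in smoke mice, that of the other Olfr genes 0.79 and 0.63, and that of all genes 0.17 and 0.15. In sorted pools, fewer cells of a type and less RNA per cell cannot be told apart.

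The split depended on what the arrays were aligned to. With every array centred on the median of the other Olfr genes, 29 receptors were higher and 30 lower in vehicle mice, and 29 higher and 32 lower in smoke mice. Centred on the median of all genes the counts were 51 and 13, and 50 and 16. Of the 54 calls in vehicle mice 44 were made in the same direction when centred on other Olfr genes, and Olfr1233 and Olfr1295 changed sign. In smoke mice 46 of 59 were, and no call changed sign. The directions given below are therefore relative to the deposited scale. The receptors described one by one in the next paragraphs on the sort kept their calls and directions when centred on other Olfr genes.

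**Figure D1:**
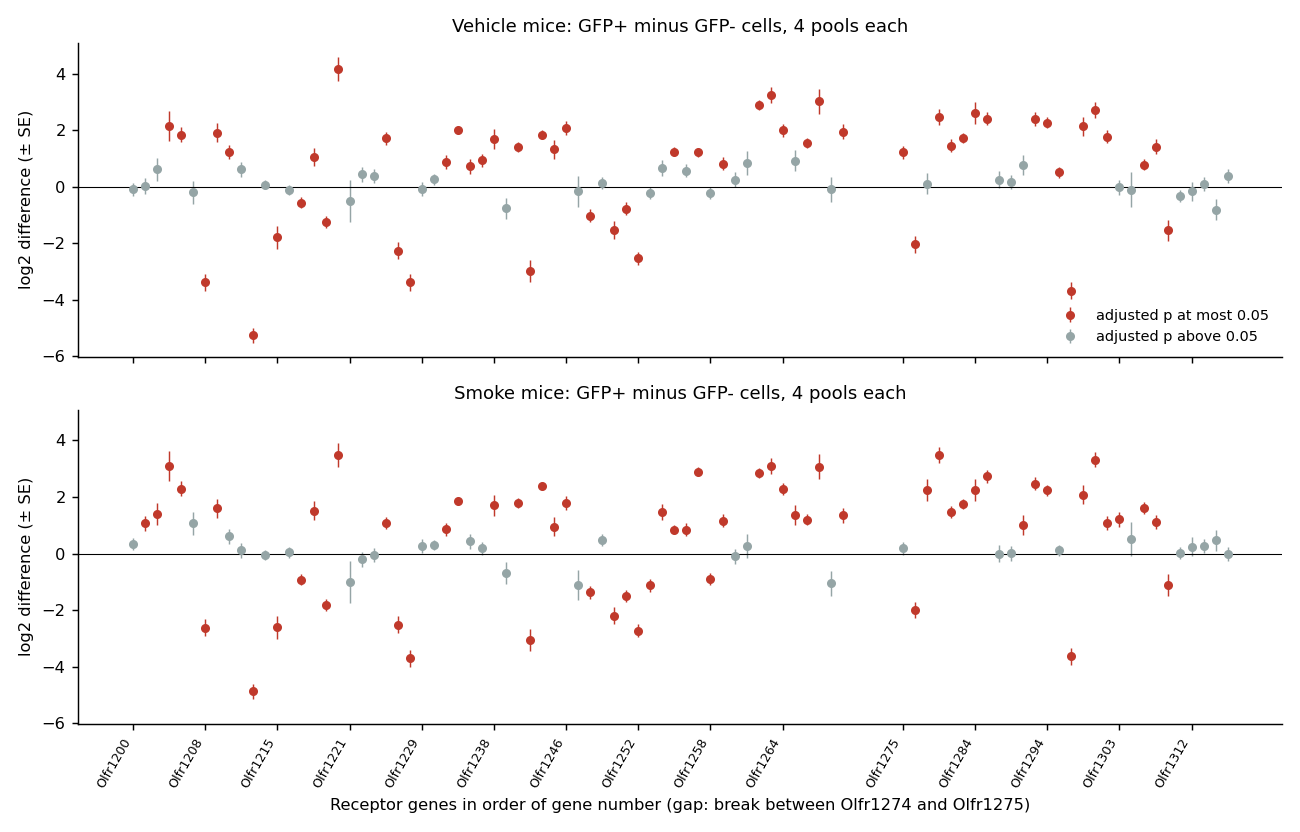
Difference between GFP+ and GFP- cells on the log2 scale (vertical axis, with SE) for the 88 receptors in order of gene number (horizontal axis), in vehicle mice (top) and smoke mice (bottom), 4 pools each; red points have an adjusted p of at most 0.05. Differences ran from -5.25 for Olfr1213 to 4.17 for Olfr1220 in vehicle mice. Some neighbours lay on opposite sides of 0, such as Olfr1219 at -1.26 and Olfr1220.

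Olfr1213, of family MOR233, differed most. It read 9.03, 9.27, 9.91 and 8.90 in vehicle GFP+ cells and 14.59, 14.79, 14.77 and 13.97 in vehicle GFP- cells. In smoke mice it read 9.44, 9.01, 10.23 and 9.18 in GFP+ and 14.37, 14.03, 14.54 and 14.42 in GFP- cells. Every GFP+ array was more than 3 log2 units below every GFP- array. The difference was -5.25 in vehicle mice (SE 0.26, limma adjusted p = 1.86e-10, 38.1-fold) and -4.88 in smoke mice (SE 0.26, adjusted p = 4.94e-10). All 4 pools of each exposure showed the direction; an exact sign-swap permutation test within 4 pools gave p = 0.125, the smallest it can give.

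Olfr1220, of the same family MOR233, lay at the other extreme. It read 15.17, 14.75, 15.24 and 14.38 in vehicle GFP+ cells and 10.94, 10.48, 10.82 and 10.64 in vehicle GFP- cells. In smoke mice it read 15.02, 13.26, 15.48 and 14.58 in GFP+ and 10.85, 9.97, 11.77 and 11.81 in GFP- cells. The fractions did not overlap in either exposure, and smoke replicate 2 was the lowest in both fractions. The difference was 4.17 in vehicle and 3.49 in smoke mice.

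Other receptors lower in GFP+ cells were Olfr1297, Olfr1228, Olfr1208, Olfr1252 and Olfr1226. Olfr1297 (family MOR248) read 10.97, 10.83, 12.26 and 10.95 in vehicle GFP+ cells and 14.44, 15.14, 15.14 and 14.98 in vehicle GFP- cells. Its groups were apart, and the difference was -3.67 (SE 0.32, limma adjusted p = 9.19e-08), and -3.64 in smoke mice. Olfr1228 read 10.35 to 11.51 against 13.53 to 14.53 in vehicle mice, with a difference of -3.39, and -3.71 in smoke mice. Olfr1208 read 6.98 to 8.43 against 10.55 to 11.87, with differences of -3.37 and -2.62. Olfr1252, the receptor without a family name, differed by -2.53 and -2.73, and Olfr1226 by -2.26 and -2.51. None of these overlapped between fractions in either exposure. Olfr1219 was also lower in GFP+ cells, with differences of -1.26 in vehicle and -1.82 in smoke mice. Olfr1279 was at or below the vomeronasal level in GFP+ cells, so only a bound holds: it was at least 0.59 log2 units higher in GFP- cells of vehicle mice and at least 0.87 of smoke mice, measured from that level.

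Receptors higher in GFP+ cells were led, by p, by Olfr1262 in vehicle mice. It read 15.31, 15.20, 14.84 and 14.86 in GFP+ and 12.24, 12.18, 12.12 and 12.11 in GFP- cells. The fractions were apart by more than 2 log2 units, with a difference of 2.89 (SE 0.17, limma adjusted p = 1.38e-09), and 2.86 in smoke mice. Its neighbour Olfr1263, also of family MOR234, differed by 3.24 and 3.10. Olfr1232 (MOR233) read 11.86 to 12.37 in vehicle GFP+ and 10.06 to 10.19 in vehicle GFP- cells, a difference of 2.00, and 1.87 in smoke mice. Olfr1294 (MOR248) differed by 2.27 and 2.24 and Olfr1286 (MOR248) by 2.41 and 2.73. Olfr1242 (MOR231) differed by 1.83 and 2.39. In smoke mice Olfr1281 and Olfr1301 (both MOR248) were among the strongest, at 3.48 and 3.33, after 2.46 and 2.71 in vehicle mice.

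The vehicle and smoke sorts used different mice and arrays, so each is a repeat of the other at another exposure. In both sorts 49 receptors were called, all in the same direction, 34 higher and 15 lower in GFP+ cells. These were 90.7% of the vehicle calls and 83.1% of the smoke calls. Of the other Olfr genes 607 were called in both, 599 in the same direction, which were 84.9% and 86.3% of their calls. Over all genes 5032 were, 5018 in the same direction, or 65.1% and 79% of the calls. Called in vehicle mice only were 5, in smoke mice only 10, and 24 were called in neither. Across the 88 receptors, which are not independent and share arrays, the differences in the exposures correlated with r = 0.94, against 0.92 for the other Olfr genes. Of the 15 receptors called in 1 exposure only, none passed the test of the difference between exposures in the fit without pools. With each pool as a block, Olfr1280 did, and is described with the smoke effect.

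**Figure D2:**
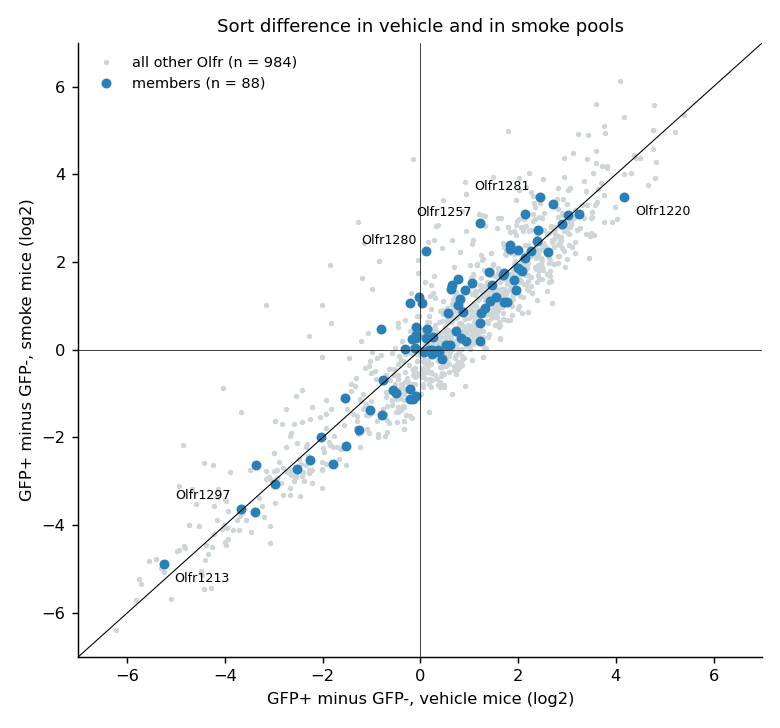
GFP+ minus GFP- difference (log2) in vehicle mice (horizontal) against smoke mice (vertical) for the 88 receptors (blue) and 984 other Olfr genes (grey), with the line of equality. Most of the 88 lie near the line, and Olfr1280 and Olfr1257 stand above it, at 0.11 and 2.25 and at 1.23 and 2.89.

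Receptors of a family did not all lie on the same side of the sort. Of the 13 MOR248 receptors in vehicle mice 10 were higher and 1, Olfr1297, lower in GFP+ cells, with a median difference of 1.78, and the counts were the same in smoke mice. Of 18 MOR233 receptors, which hold both extremes, 5 were higher and 6 lower, with a median of -0.01. MOR231 had 6 higher and 4 lower of 16, MOR245 4 and 2 of 15, and MOR232 4 and 0 of 7. These counts were read against 24.2% higher and 15.4% lower over all genes, and 53.6% and 19.1% over other Olfr genes. Centred on other Olfr genes, MOR248 had 9 higher and 1 lower in vehicle mice and a median of 1.04, MOR233 had 3 and 9 and a median of -0.74, and MOR231 had 4 and 7 with a median of -0.39. MOR245 then had 2 higher and 7 lower and a median of -0.63, after 0.11 on the deposited scale, and MOR232 had 3 and 1. Centred on all genes, the median of MOR233 in vehicle mice was 0.33. The sign of the median of MOR231, MOR233 and MOR245 therefore depends on the centring, as does the split of their calls. Members of a family are mostly neighbours, so family and position cannot be told apart.

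**Figure D3:**
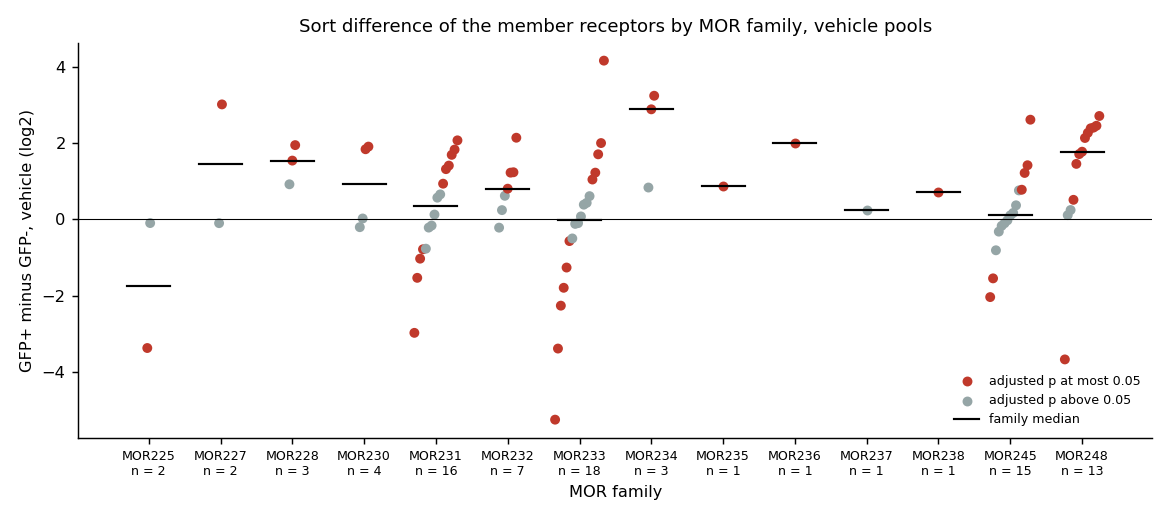
GFP+ minus GFP- difference (log2) in vehicle mice by MOR family, with n receptors per family on the horizontal axis; each point is a receptor, bars are family medians, and red points have an adjusted p of at most 0.05. MOR248 has a median of 1.78 and MOR233 a median of -0.01.

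By gene number, Olfr1200 to Olfr1229 held 7 higher and 7 lower of 25 in vehicle mice, Olfr1230 to Olfr1259 held 12 and 5 of 25, Olfr1260 to Olfr1289 held 12 and 1 of 21, and Olfr1290 to Olfr1317 held 8 and 2 of 17. Their medians were 0.02, 0.66, 1.46 and 0.37, against 0.17 over all genes and 0.79 over other Olfr genes. Olfr1260 to Olfr1289 crosses the break between Olfr1274 and Olfr1275, so it is not a single stretch of the chromosome. Centred on other Olfr genes, the 4 number groups held 5 higher and 13 lower, 7 and 9, 11 and 2, and 6 and 6. Their medians were then -0.71, -0.08, 0.72 and -0.37. These counts have the same background as those of the families, 24.2% higher and 15.4% lower over all genes. Uninterrupted stretches of calls in one direction were short. The longest in vehicle mice, of 5 receptors each, were Olfr1231 to Olfr1238 (0.73 to 2.00) and Olfr1281 to Olfr1286 (1.46 to 2.62). In smoke mice they were Olfr1262 to Olfr1270 (up to 3.10) and Olfr1280 to Olfr1286 (1.48 to 3.48), with 6 receptors each. Centred on other Olfr genes, the first of these stretches lost the calls of Olfr1231, Olfr1233 and Olfr1234 (differences of 0.13, -0.01 and 0.20), and Olfr1262 to Olfr1270 lost that of Olfr1265 (0.64, limma adjusted p = 0.0913). Those from Olfr1280 or Olfr1281 to Olfr1286 kept their calls. Olfr1250 to Olfr1252 were lower in GFP+ cells, with differences of -2.53 to -0.78 in vehicle mice. Of 81 neighbouring pairs 32 had differences of opposite sign in vehicle mice, and the correlation between neighbours was 0.14. The median gap between the differences of neighbours was 1.16, against 1.45 over all pairs of the 88. Between a receptor's mean level and its difference r was 0.02 over the 88 receptors.

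The second question was which receptors changed with smoke. In GFP+ cells none of the 88 was called (limma, adjusted p of at most 0.05), against 0.108% of all genes and 12 of the 984 other Olfr genes (1.22%). At an unadjusted p under 0.05 there were 14 of the 88 (15.9%), 11 higher and 3 lower, against 4.8% of all genes and 17.4% of other Olfr genes. The median difference was 0.03. The count of 0 must be read with the rule: the 8 receptors left out of the range were all higher in smoke GFP+ cells, with a median of 1.27 and a range of 0.60 to 3.97, and 4 of them were called. With them the range holds 4 called of 96.

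Olfr1257, of family MOR232, had the smallest p in GFP+ cells. It read 14.69, 14.81, 14.47 and 14.64 in smoke and 13.86, 14.07, 14.25 and 13.98 in vehicle GFP+ cells. All 4 smoke arrays were above all 4 vehicle arrays, by 0.61 on average (SE 0.16, limma adjusted p = 0.404; exact two-sided permutation p = 0.0286, the smallest that 4 arrays against 4 can give). In GFP- cells the order was the opposite: it read 12.25, 11.66, 11.34 and 11.81 in smoke and 13.03, 12.82, 12.67 and 12.74 in vehicle mice. All 4 smoke arrays were below all 4 vehicle arrays. It fell by 1.05 in GFP- cells (SE 0.16, adjusted p = 0.011, 2.07-fold), the only call of the 88 there, against 0.128% of all genes and 22 of the 984 other Olfr genes (2.24%). The adjusted p was 0.0549 without the first vehicle GFP- array, 0.306 without smoke pools 2 and 4, and 0.164 in a fit of only the arrays compared, all above the threshold, with differences of -0.98, -1.02 and -1.05.

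The difference of the smoke effect between GFP+ and GFP- cells asks whether the change with smoke was unequal in the fractions. It was 1.66 for Olfr1257 (SE 0.23, limma adjusted p = 0.00251), the only call of the 88, against 0.174% of all genes and 25 of the 984 other Olfr genes (2.54%). At an unadjusted p under 0.05 there were 14 of the 88 (15.9%), against 5.71% of all genes and 26.1% of other Olfr genes. Both counts must be read with the rule, as in GFP+ cells. With the 8 left-out receptors, 6 of the 96 in the range were called. With the pool as a block the limma adjusted p for Olfr1257 was 0.0152. Without smoke pools 2 and 4 it was 0.25 (difference 1.56), so the call was lost with these arrays left out. That fit also had fewer arrays, so a trait of these pools and lower precision cannot be told apart. Sustentacular genes reached 12.97 on the smoke GFP+ arrays and 12.21 on the vehicle GFP+ arrays, and their part in this result was not tested. The sort of Olfr1257 was 1.23 in vehicle mice and 2.89 in smoke mice, 2.34-fold and 7.40-fold. The other 6 MOR232 receptors were not called for this difference. It was 0.78 for Olfr1202, 0.95 for Olfr1204, -0.39 for Olfr1255, -0.69 for Olfr1258, 0.35 for Olfr1259 and -0.35 for Olfr1260, with limma adjusted p from 0.86 to 0.948. The neighbour Olfr1256, of MOR231, had 0.28 (adjusted p = 0.954).

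**Figure D4:**
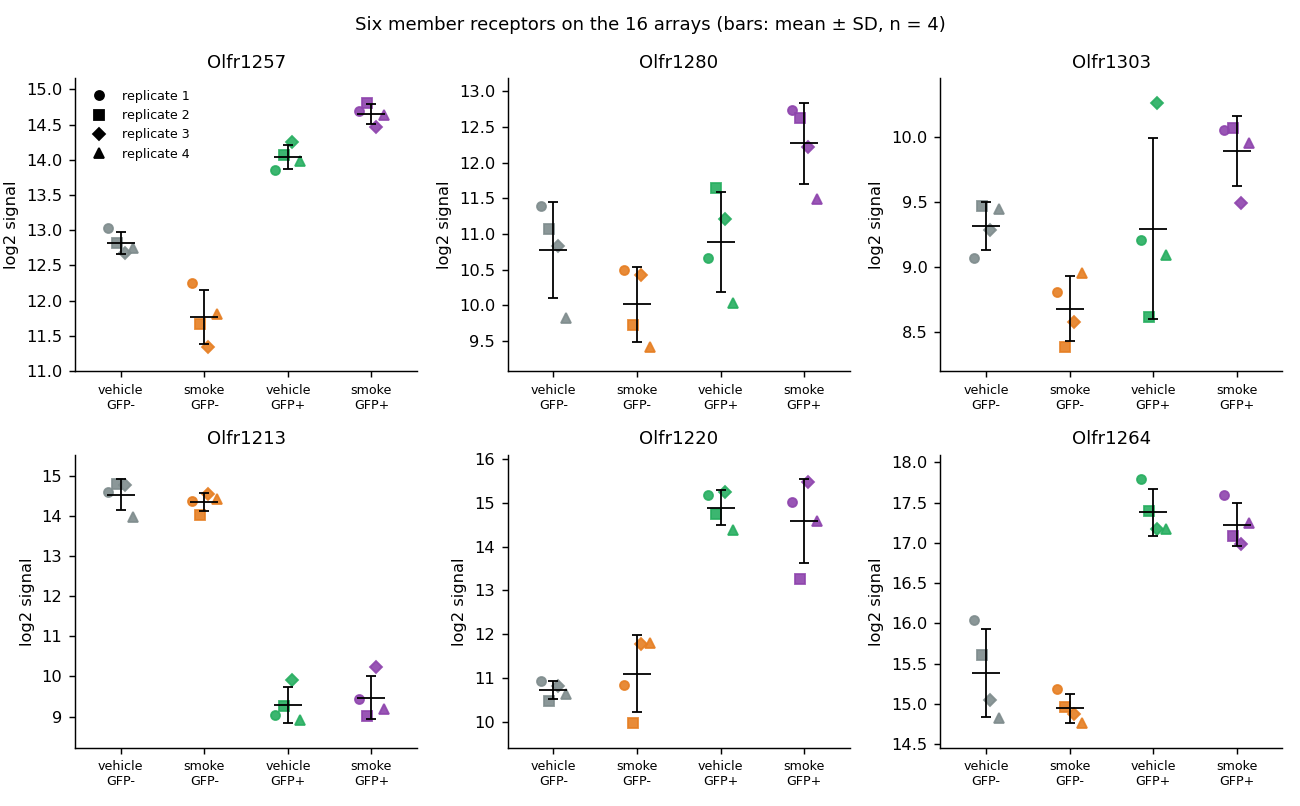
Log2 signal (vertical axis) of 6 receptors on the 16 arrays, by group (horizontal axis), with replicate numbers as symbols and bars for mean and SD (n = 4). Olfr1257 lies at 14.47 to 14.81 (smoke) and 13.86 to 14.25 (vehicle) in GFP+ cells and at 11.34 to 12.25 (smoke) and 12.67 to 13.03 (vehicle) in GFP- cells, while Olfr1213, Olfr1220 and Olfr1264 separate by fraction, with overlapping exposures.

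Olfr1280 had the largest difference of the smoke effect among the 88. It read 12.74, 12.63, 12.22 and 11.49 in smoke and 10.67, 11.64, 11.21 and 10.03 in vehicle GFP+ cells. In GFP- cells it read 10.49, 9.73, 10.43 and 9.42 in smoke and 11.39, 11.07, 10.83 and 9.83 in vehicle mice. In GFP+ cells smoke arrays overlapped the vehicle arrays, since smoke replicate 4 was below vehicle replicate 2, and replicate 4 was the lowest of each group. The difference was 1.38 in GFP+ cells (SE 0.38, limma adjusted p = 0.524) and -0.76 in GFP- cells (adjusted p = 0.873), and 2.14 between them (SE 0.54, adjusted p = 0.313). With each pool as a block the limma adjusted p of the last was 0.0316. Leaving out single arrays it was 0.106 to 0.564, and over all alternatives 0.0139 to 0.953. In vehicle mice the fractions overlapped (difference 0.11), and in smoke mice every GFP+ array was above every GFP- array (difference 2.25, adjusted p = 0.00024).

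Olfr1303 (MOR245) had the next smallest p for this difference, at 1.24 (SE 0.36, limma adjusted p = 0.557). It read 10.05, 10.07, 9.49 and 9.96 in smoke and 9.21, 8.61, 10.26 and 9.09 in vehicle GFP+ cells, and 8.80, 8.38, 8.58 and 8.95 in smoke and 9.07, 9.47, 9.28 and 9.45 in vehicle GFP- cells. The third vehicle GFP+ array was above all smoke GFP+ arrays, and the GFP- groups did not overlap. Without that array the difference was 1.56 and its limma adjusted p 0.0167. No other single array left out brought it under the threshold. Across these fits the difference ran from 1.01 to 1.56 and the adjusted p up to 0.771. In the other direction Olfr1275 had -1.03, Olfr1253 -0.91 and Olfr1234 -0.75, with adjusted p of 0.665, 0.763 and 0.849. Olfr1275 read 11.79, 12.09, 12.32 and 12.27 in smoke and 13.09, 12.81, 12.64 and 12.55 in vehicle GFP+ cells, groups that did not overlap, with a difference of -0.65 (adjusted p = 0.853).

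The other receptors with the smallest p did not pass either. In GFP+ cells Olfr1306 differed by 0.69 (8.85 to 9.50 in smoke, 8.27 to 8.68 in vehicle), Olfr1234 by -0.57 and Olfr1302 by -0.54, with limma adjusted p of 0.592, 0.974 and 0.999. In GFP- cells, where the median was 0.09 and 9 of the 88 (10.2%) had an unadjusted p under 0.05 against 5.72% of all genes and 21.5% of other Olfr genes (median 0.17), Olfr1281 differed by -0.92 and Olfr1242 by -0.53. Olfr1253, Olfr1317 and Olfr1255 differed by 0.61, 0.66 and 0.40 there. Their adjusted p ran from 0.525 to 0.777. Olfr1200, the first receptor of the range, read 14.41 to 14.86 in smoke and 13.85 to 14.23 in vehicle GFP+ cells, without overlap, by 0.67 (adjusted p = 0.701).

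**Figure D5:**
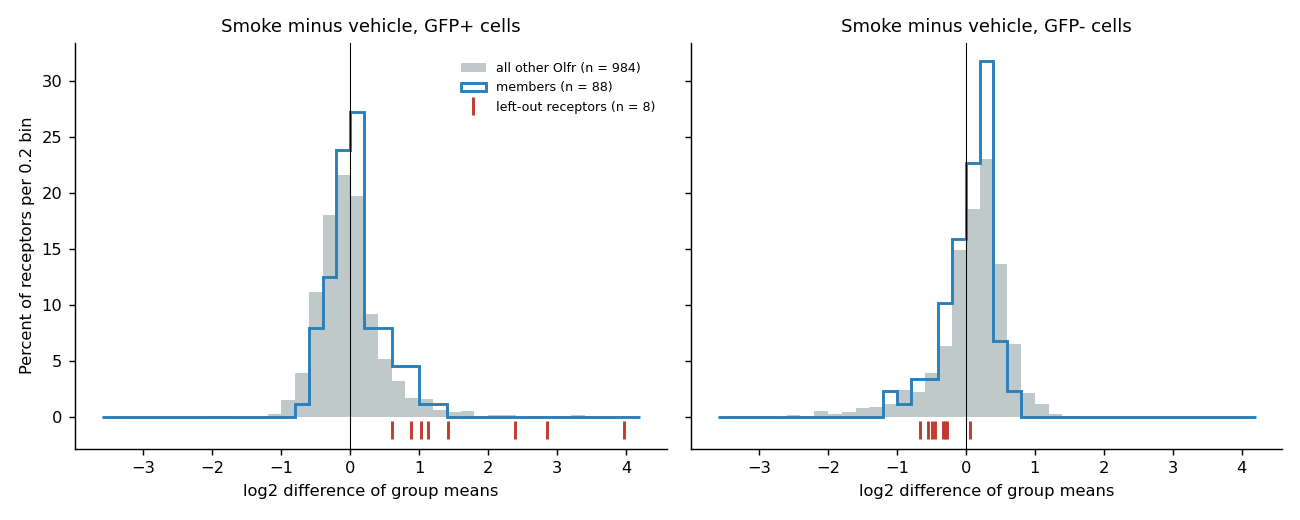
Distribution of the smoke minus vehicle difference (log2, horizontal axis) as percent of receptors per bin (vertical axis), in GFP+ cells (left) and GFP- cells (right), for the 88 receptors (blue outline), 984 other Olfr genes (grey) and the 8 left-out receptors (red ticks). The medians of the 88 are 0.03 and 0.09, and the left-out receptors spread from 0.60 to 3.97 in GFP+ cells.

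The genes that receptors work through were read beside them, from a list of 30 measured signalling and receptor choice genes. None passed in the smoke comparisons (limma), and the 1 with an unadjusted p under 0.05 in each fraction was S100a5. In vehicle mice 13 were higher in GFP+ cells and 2 lower, and in smoke mice 8 and 2, among all genes with 39.6% and 32.7% called. In vehicle mice Adcy3, the cyclase, differed by 0.43, Cnga2, the channel subunit, by 0.34, Pde1c, a cyclic nucleotide phosphodiesterase, by 0.82, and Reep1, linked to receptor transport, by 0.61. Grk3, a kinase that desensitises receptors, was called lower in GFP+ cells. Its mean signal there was 5.12 (vehicle) and 5.46 (smoke), below the vomeronasal level, against 6.83 and 6.74 in GFP- cells, so no size is given for it. S100a5, whose promoter drives GFP, was higher in GFP+ cells by 1.21 (vehicle) and 1.15 (smoke). In GFP+ cells it read 16.8 to 17.14 in smoke and 16.39 to 16.51 in vehicle mice (difference 0.56, limma adjusted p = 0.364). In GFP- cells it read 15.51 to 16.08 in smoke and 14.91 to 15.47 in vehicle mice (0.62, limma adjusted p = 0.179). The exposures did not overlap in either fraction, and the part of this in the results on receptors was not tested. Adcy3 and Cnga2 in both fractions, and S100a5 in GFP+ cells, read above the log2 ceiling of 16 named above. The scale may be stretched there, and with it the size of their differences.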

How the data were processed

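RNA of GFP+ and GFP- cells from 8 pools of 3 mice was hybridised to 16 arrays. The deposited values are on a log2 scale and were used as the authors gave them. Affymetrix Expression Console is named, per the submitters' processing notes; its version and algorithm, and the array annotation, are not given in the sources used. The values ran from 2.51 to 18.6, and sorted values of arrays of a group differed by at most 0.18. Correlations between arrays of a group were 0.988 to 0.995 (across genes). Of 28846 probe sets 19572 carried 1 gene symbol, and the brightest per gene gave 19505 genes; none of the 88 receptors had several. Probe sequences were not used here, so cross-hybridisation between similar receptors was not tested.

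Models with 4 group means and 5 contrasts were fitted to all genes with lmFit and eBayes of limma 3.58.1 under R 4.3.3; p-values are two-sided, adjusted by Benjamini-Hochberg over all 19505 genes, with a threshold of 0.05. The fit was tested on simulated data. Names, gene order, MOR synonyms and promoter windows came from RefSeq (GRCm38.p6), and all 88 symbols matched. Python 3.11.15 and matplotlib 3.10.9 drew the figures.

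The receptors, lists and tests were chosen with earlier results of these data known. Named receptors were any called with smoke, the 6 called with the smallest p per sort contrast and direction (or the 3 smallest where fewer than 3 were called), the 5 highest and 5 lowest means, and the first and last of the range; other names (Olfr1220, the family and neighbours of Olfr1257, ends of stretches, lost calls and sign changes) were chosen after their values were seen. Fractions of one number share a pool, that is, the same mice; their residuals correlated with r of 0.22, 0.091, 0.093 and 0.13 (smoke) and 0.21, 0.082, 0.045 and 0.20 (vehicle). Alternatives covered normalization, centring, a filter on dim genes, probe set choice, the variance model, the arrays in the fit, the threshold, pools as a block and single arrays left out.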

Additional observations from a re-analysis of the deposited data

Results flagged for a closer look

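The smoke effect on Olfr1257 differed between GFP+ and GFP- cells by 1.66 on the log2 scale, as tested by the interaction contrast (limma adjusted p = 0.00251).

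In 8 of 136 groups of 4 arrays of named receptors, 1 array stood far from the other 3, and chance gives about 1 in 20. Olfr1200 read 14.41 in smoke GFP+ replicate 4, against 14.79 to 14.86. Olfr1234 read 12.30 in smoke GFP+ replicate 2, against 11.45 to 11.53. Olfr1255 read 10.24 in smoke GFP+ replicate 1, against 9.75 to 9.79, and 9.66 in vehicle GFP+ replicate 3, against 9.93 to 9.98. Olfr1287 read 6.08 in smoke GFP- replicate 3, against 6.57 to 6.64. Olfr1294 read 12.36 in vehicle GFP+ replicate 4, against 11.90 to 11.98. Olfr1297 read 12.26 in vehicle GFP+ replicate 3, against 10.83 to 10.97. Olfr1302 read 10.23 in smoke GFP- replicate 1, against 9.67 to 9.76.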

How the results depend on the processing

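Of 105 counts recomputed, 95 stayed within 1.5 times the main count. These counts take both directions together, so a shift between directions does not show in them. Centred on other Olfr genes, lower calls went from 15 to 30 in vehicle and from 17 to 32 in smoke mice. Higher calls went from 39 to 29 and from 42 to 29. Of 786 values of named receptors, 778 kept direction and side of the threshold. None changed sign among called values of named receptors. In GFP+ cells the count of receptors changed by smoke was 0, and became 1 (Olfr1280, 1.38, limma adjusted p = 0.0364) with the replicate number as a block, and 4 with the left-out receptors; leaving out arrays gave 0 to 0. In GFP- cells it was 1, and 0 without smoke pools 2 and 4 and in the fit of only the arrays compared; leaving out single arrays gave 0 to 1. The difference between fractions gave 1, 2 with the replicate number as a block, 2 with the pool block, 0 without smoke pools 2 and 4, 6 with the left-out receptors, and 1 to 2 leaving out single arrays. The pool block raised the sort counts to 60 and 64 and lost no call. The same replicate number in smoke and vehicle stands for different mice. Residuals of such arrays correlated with r of 0.14, 0.077, 0.15 and 0.20 in GFP+, and 0.18, -0.071, 0.10 and -0.084 in GFP- cells. In GFP+ cells Olfr1247 had its lowest and its highest array at the same numbers in both exposures. Whether arrays of the same number share anything else was not tested. Medians of the sort in vehicle mice were 0.93 centred on all genes and -0.14 centred on other Olfr genes, and in smoke mice 0.89, -0.16 and, without dim genes, 0.84. The median difference of the smoke effect was -0.22 without smoke GFP- replicate 3. The causes were not tested.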
